A study of Mus musculus with 7 samples.

Results

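Apolipoproteins are the proteins that coat lipoprotein particles, and the genes of 10 of them were followed in mouse liver after lipopolysaccharide (LPS), a component of the outer membrane of Gram-negative bacteria that sets off systemic inflammation. The members were chosen by name, as the rows of the count table with the symbols Apoa1, Apoa2, Apoa4, Apoa5, Apob, Apoc1, Apoc2, Apoc3, Apoe and Apom. Each symbol had 1 row, which gave 10 of the 56691 genes in the table. The hepatocyte packs triglyceride and cholesterol into very low density lipoprotein (VLDL) around Apob, and it secretes Apoa1, which takes up cholesterol from cells to form high density lipoprotein (HDL). Smaller exchangeable apolipoproteins, such as Apoe and the Apoc proteins, move between particles and steer their lipolysis and their uptake by receptors. In systemic inflammation the liver turns much of its secretory capacity to acute phase proteins, among them serum amyloid A, which travels on HDL.

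Liver was profiled by bulk RNA sequencing in 4 control and 3 LPS-treated mice. All were male C57BL/6J mice, an inbred strain, bought at 8 weeks of age and then housed for 2 weeks. The LPS group received an injection of LPS at 10 mg/kg and was killed 24 h later, while what the controls received in its place is not given in the sources used here. Mice given sulforaphane were not analysed here. Libraries were made from polyadenylated RNA by a method that keeps the strand of the transcript. The labels name 1 library per sample without saying which animal it came from, so the p-values measure the spread between these samples.

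The summed counts of the control libraries 1 to 4 were 14991022, 15096573, 15721944 and 18584140. Those of the LPS libraries 1 to 3 were 20500391, 17095607 and 17821331. Levels are given as CPM, the counts of a gene relative to a library size scaled by TMM, a factor that takes most genes to be equal between libraries. LPS libraries 2 and 3 resembled each other more than any other pair within a group: the SD of the log2 ratio of their abundant genes was 0.10, while it lay between 0.29 and 0.58 for the remaining 8 pairs. They were kept as separate samples as labelled, and whether they come from separate mice was not tested. For the genes that were refitted, results are also given with them summed into 1 sample where that ended a call. Apoc4, Apoc2l, Fabp2 and the counts of the gene and marker lists were not refitted in that way.

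The control libraries also differed among themselves. Mitochondrially encoded genes took 23.7%, 14.6%, 7.48% and 8.96% of the counts in control libraries 1 to 4, and 6.45%, 3.83% and 3.94% in LPS libraries 1 to 3. Relative to the mean of the controls, the median log2 level of 696 genes with under 1 kb of exon exceeded that of 6935 genes with over 4 kb by 0.32 in control libraries 1 and 2. The same difference was -0.29 and -0.25 in control libraries 3 and 4, and -0.07, -0.08 and 0.03 in the LPS libraries. Relative to that mean, short mRNAs were thus high in control libraries 1 and 2 and low in 3 and 4. The LPS libraries lay between. Several apolipoprotein mRNAs are short. Each member was therefore also fitted without control libraries 1 and 2, a choice made after seeing the data. That fit keeps only the controls low in short mRNAs, and no fit without control libraries 3 and 4 together was made. Its fold changes are thus not corrected for this difference.

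The tissue label was checked against 16 hepatocyte markers, none of which was at 0. Their summed level was 65879, 71574, 94384 and 83225 CPM in the controls and 52637, 57638 and 57649 CPM in the LPS libraries, with Alb the most abundant. Of the 16 markers, 5 were higher and 4 lower in LPS-treated mice, and 7 did not pass the test. Without Alb the other 15 summed to 27964, 33840, 32765 and 32790 CPM in control libraries 1 to 4 and 28022, 33007 and 32983 CPM in LPS libraries 1 to 3, so the lower sum after LPS lay in Alb.

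All 10 members passed the filter on low counts, and 4 of them fell (Apoa1, Apoa2, Apoc1 and Apoe), 1 rose (Apoa4) and 5 did not pass the test at an adjusted p below 0.05 (Apoa5, Apob, Apoc2, Apoc3 and Apom). Over all 13683 genes tested, 13.0% were lower and 13.3% were higher by the same rule, and by total counts 2055 genes were lower and 1350 higher, in place of 1773 and 1824. In the same 4 members every LPS library lay below every control library, as in 17.4% of all genes, and in Apoa4 every LPS library lay above, as in 18.1% of all genes. The median log2 fold change of the 10 members was -0.24, and that of all genes was -0.01. Past an absolute log2 fold change of 1 there were 2 members that fell (Apoa2 and Apoc1) and 1 that rose (Apoa4). The share of all genes past that rule is not given here, so nothing is read from these counts about the members as a group.

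**Figure D1:**
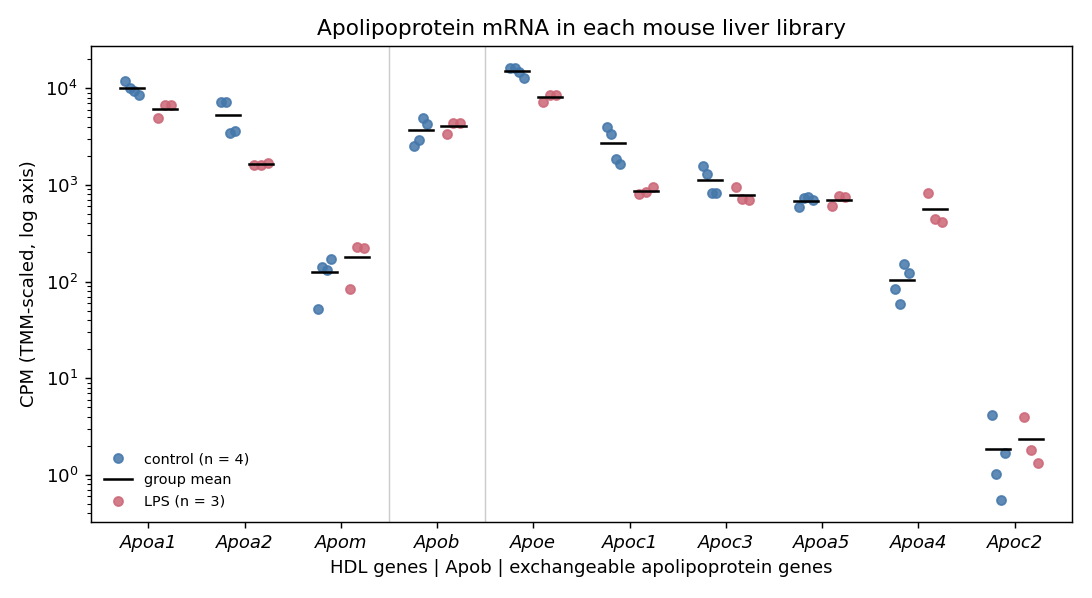
CPM of each apolipoprotein gene in each library on a log axis, with control libraries (n = 4) in blue, LPS libraries (n = 3) in red and a black line at each group mean. Apoa1, Apoa2, Apoe and Apoc1 lay lower in every LPS library than in any control library, Apoa4 lay higher, and the groups overlapped in the remaining 5 genes.

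The HDL genes were Apoa1, Apoa2 and Apom. Apoa1 (ENSMUSG00000032083) encodes the main protein of HDL and the activator of the cholesterol-esterifying enzyme Lcat. Its level was 11981, 10041, 9378 and 8490 CPM in control libraries 1 to 4 and 4966, 6752 and 6649 CPM in LPS libraries 1 to 3. The highest LPS library stood below the lowest control library, and the LPS library 1 was the lowest of all 7. The group means were 9973 ± 1482 CPM (SD, n = 4) in controls and 6122 ± 1003 CPM (SD, n = 3) after LPS, a 1.63-fold fall. The log2 fold change was -0.70 (SE 0.20, adjusted p = 0.0231 by edgeR's quasi-likelihood test with Benjamini-Hochberg adjustment). This call needed all 3 LPS libraries: the adjusted p was 0.0608 without LPS library 1, 0.0600 without library 2, 0.0657 without library 3 and 0.066 with libraries 2 and 3 summed, in edgeR's quasi-likelihood test with Benjamini-Hochberg adjustment. The log2 fold change lay between -0.82 and -0.56 over 17 alternative fits.

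Apoa2 (ENSMUSG00000005681), the second most abundant HDL protein of the mouse, changed more. Its level was 7172, 7142, 3449 and 3594 CPM in control libraries 1 to 4 and 1600, 1622 and 1689 CPM in LPS libraries 1 to 3. The LPS libraries were close together, whereas control libraries 1 and 2 stood apart from 3 and 4, and no LPS library reached any control library. The means were 5339 ± 2099.8 CPM (SD, n = 4) and 1637 ± 46.7 CPM (SD, n = 3), a 3.26-fold fall. On the log2 scale the change was -1.71 (SE 0.28, adjusted p = 0.000737 by edgeR's quasi-likelihood test with Benjamini-Hochberg adjustment), and all 17 alternative fits kept it past the threshold. With control libraries 1 and 2 left out the log2 fold change was -1.12. The exons of Apoa2 span 0.537 kb, which places it among the genes with under 1 kb of exon. Whether length accounts for its level in those libraries was not tested.

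Apom (ENSMUSG00000024391) encodes a lipocalin of HDL that carries the lipid mediator sphingosine 1-phosphate. It had 52.6, 142, 133 and 170 CPM in control libraries 1 to 4 and 83.8, 228 and 221 CPM in LPS libraries 1 to 3. Library 1 was the lowest of each group, and the groups overlapped. The means were 124 ± 50.4 CPM (SD, n = 4) and 177 ± 81.1 CPM (SD, n = 3), and the log2 fold change of 0.51 (SE 0.37) did not pass (adjusted p = 0.347, edgeR's quasi-likelihood test with Benjamini-Hochberg adjustment). The log2 fold change lay between 0.25 and 0.85 with 1 library left out at a time, and it was 0.21 without control libraries 1 and 2. It did pass without the filter on low counts, with an adjusted p of 0.0189 by edgeR's quasi-likelihood test with Benjamini-Hochberg adjustment. Apom also passed with the replicate number as a block (log2 fold change 0.69), although the labels do not say that the numbers pair the mice.

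VLDL was represented by Apob (ENSMUSG00000020609), the large structural protein that stays with its particle from assembly to uptake. Its level was 2547, 2908, 4966 and 4265 CPM in control libraries 1 to 4 and 3387, 4355 and 4373 CPM in LPS libraries 1 to 3. All 3 LPS libraries lay inside the range of the controls, in which libraries 1 and 2 were low and 3 and 4 high, the reverse of Apoa2. The means were 3672 ± 1137 CPM (SD, n = 4) and 4038 ± 564 CPM (SD, n = 3). The log2 fold change was 0.14 (SE 0.24, adjusted p = 0.724 by edgeR's quasi-likelihood test with Benjamini-Hochberg adjustment), -0.01 by total counts and -0.21 without control libraries 1 and 2, so no direction is given for Apob. Its exons span 13.9 kb, the greatest length among the members.

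The exchangeable group held Apoe, Apoc1, Apoc2, Apoc3, Apoa4 and Apoa5. Apoe (ENSMUSG00000002985), the ligand through which remnant particles bind hepatocyte receptors, took the most counts of the 10 genes. It measured 16314, 16394, 14650 and 12682 CPM in control libraries 1 to 4 and 7190, 8539 and 8433 CPM in LPS libraries 1 to 3. The groups were well separated, and control libraries 1 and 2 differed little from library 3. The means were 15009.9 ± 1748 CPM (SD, n = 4) and 8054 ± 750 CPM (SD, n = 3), a 1.86-fold fall. This was -0.90 on the log2 scale (SE 0.20, adjusted p = 0.00482 by edgeR's quasi-likelihood test with Benjamini-Hochberg adjustment) and lay between -1.02 and -0.78 in the alternative fits, all of which kept the call.

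Macrophages also make Apoe, so the macrophage markers are given beside it. Of 15 Kupffer cell and macrophage markers tested, 8 were higher and 1 lower in LPS-treated mice. Their summed level was 185, 248, 235 and 152 CPM in the controls and 881, 275 and 283 CPM in the LPS libraries, and none was at 0 in all libraries. The marker with the highest CPM was Clec4f in each control (43.4 to 69.8 CPM), Marco in LPS library 1 (409 CPM) and Lyz2 in LPS libraries 2 and 3 (69.2 and 74.1 CPM). LPS library 1 was the highest in the summed markers and the lowest in Apoe CPM, but as a share of all counts Apoe took 0.762%, 0.776% and 0.761% in LPS libraries 1 to 3, so that order depends on the scaling. The part of macrophages in the Apoe level was not tested.

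Apoc1 (ENSMUSG00000040564), a small protein that hinders the receptor uptake of remnants, fell 3.14-fold. Its level was 3972, 3340, 1835 and 1649 CPM in control libraries 1 to 4 and 805, 835 and 942 CPM in LPS libraries 1 to 3. As for Apoa2, control libraries 1 and 2 were far above 3 and 4, and the lowest control still exceeded the highest LPS library. The means were 2699 ± 1137 CPM (SD, n = 4) and 861 ± 72.3 CPM (SD, n = 3). The log2 fold change was -1.65 (SE 0.29, adjusted p = 0.00116 by edgeR's quasi-likelihood test with Benjamini-Hochberg adjustment), and it was -1.03 without control libraries 1 and 2. All 17 alternative fits kept the call.

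Apoc3 (ENSMUSG00000032081), which inhibits lipoprotein lipase, had 1561, 1296, 830 and 821 CPM in control libraries 1 to 4 and 950, 719 and 702 CPM in LPS libraries 1 to 3. LPS library 1 lay above control libraries 3 and 4, so the groups overlapped. The means were 1127 ± 365 CPM (SD, n = 4) and 790 ± 138 CPM (SD, n = 3), and the log2 fold change of -0.51 (SE 0.24) missed the threshold (adjusted p = 0.137, edgeR's quasi-likelihood test with Benjamini-Hochberg adjustment). It was -0.07 without control libraries 1 and 2. Without the filter on low counts the gene passed, at an adjusted p of 0.0476 by edgeR's quasi-likelihood test with Benjamini-Hochberg adjustment. Apoc3 also passed with the replicate number as a block (log2 fold change -0.60), with the same limit as for Apom.

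Apoc2 (ENSMUSG00000002992), the cofactor that lipoprotein lipase needs, could not be measured with certainty. It had 59, 16, 9 and 35 counts in control libraries 1 to 4 and 86, 28 and 21 counts in LPS libraries 1 to 3. They were the lowest counts of the 10 members in every library. In GENCODE M21, 646 of its 813 exon bases (79.5%) lie on the same strand in exons of Apoc2l, a joined transcript unit over Apoc4 and Apoc2, and whether reads on shared bases were counted is not given in the sources used here. Between groups the log2 fold change of Apoc2 was 0.37 (SE 0.62, adjusted p = 0.717 by edgeR's quasi-likelihood test with Benjamini-Hochberg adjustment), and LPS library 1 set its sign, since it was -0.24 without that library. The log2 fold change was 1.11 without control library 1 and 1.05 without control libraries 1 and 2.

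Apoa4 (ENSMUSG00000032080) was the member that rose. It encodes a lipid-binding protein made mostly by the intestine and, in the mouse, also by the liver. Its level was 84.6, 58.3, 153 and 122 CPM in control libraries 1 to 4 and 816, 446 and 417 CPM in LPS libraries 1 to 3. The lowest LPS library stood well above the highest control, and LPS library 1 was the highest of all. The means were 104 ± 41.5 CPM (SD, n = 4) and 560 ± 222 CPM (SD, n = 3), a 5.36-fold rise. On the log2 scale it rose by 2.42 (SE 0.31, adjusted p = 9.98e-05 by edgeR's quasi-likelihood test with Benjamini-Hochberg adjustment), 2.05 without LPS library 1 and 2.02 without control libraries 1 and 2.

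The enterocyte markers Alpi, Lct, Sis and Cdx1 had 0 counts in all 7 libraries, which allows up to 0.212 CPM in the shallowest of them for counting error. Of 8 enterocyte markers, 3 were tested: Apoa4 itself, Fabp2, which fell, and Anpep, which did not pass. Apoa4 had the highest CPM of the list in each LPS library and in control libraries 3 and 4, and Fabp2 had it in control libraries 1 and 2. The 7 markers other than Apoa4 summed to 201, 212, 263 and 211 CPM in control libraries 1 to 4 and 148, 223 and 211 CPM in LPS libraries 1 to 3, with no LPS library above the range of the controls. The antisense genes Gm10680 and Gm47528 overlap 34.8% and 34.9% of the exon bases of Apoa4 in GENCODE M21. Since it is not given whether the counting used the strand, antisense reads in the Apoa4 count were not tested.

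Apoa5 (ENSMUSG00000032079), a scarce plasma protein that promotes triglyceride lipolysis, had 586, 724, 742 and 697 CPM in control libraries 1 to 4 and 604, 761 and 747 CPM in LPS libraries 1 to 3. The ranges of the groups almost coincided. The means were 687 ± 70.2 CPM (SD, n = 4) and 704 ± 86.8 CPM (SD, n = 3), and the log2 fold change was 0.03 (SE 0.16, adjusted p = 0.901 by edgeR's quasi-likelihood test with Benjamini-Hochberg adjustment). By total counts it was -0.10. The antisense gene Gm47544 overlaps 20.8% of its exon bases, with the same limit as for Apoa4.

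**Figure D2:**
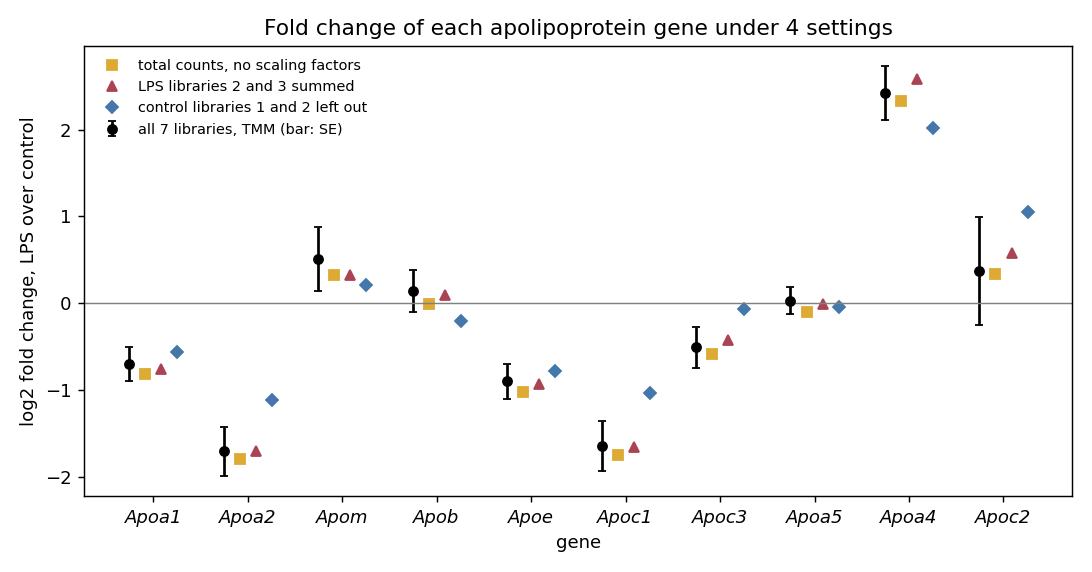
Log2 fold change of LPS over control for each apolipoprotein gene with all 7 libraries (black, bar: SE), by total counts (yellow squares), with LPS libraries 2 and 3 summed (red triangles) and without control libraries 1 and 2 (blue diamonds). Apoa1, Apoa2, Apoe and Apoc1 were below 0 and Apoa4 above 0 in all 4 settings, while Apob and Apoa5 changed sign.

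Levels of different genes were compared per kilobase of exon in GENCODE M21. In controls the CPM per kb was 9943 ± 3910.2 for Apoa2, 8069 ± 1199 for Apoa1 and 7020.5 ± 817 for Apoe (SD, n = 4), and these 3 did not differ beyond their spread. Apoc1 followed at 3627 ± 1529 CPM per kb and Apoc3 at 1111 ± 360 CPM per kb. Apoa5 at 273 ± 27.9 and Apob at 263 ± 81.6 CPM per kb did not differ beyond their spread, and Apom (123 ± 49.7), Apoa4 (57.5 ± 22.9) and Apoc2 (2.28 ± 1.98) were the lowest. After LPS the order of CPM per kb began with Apoa1 at 4953 ± 811, Apoe at 3767 ± 351 and Apoa2 at 3048 ± 87.0 (SD, n = 3). Apoa4 stood at 309 ± 123 CPM per kb, among Apob (290 ± 40.5) and Apoa5 (279 ± 34.4), from which it did not differ beyond the spread.

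As a share of all counts, the 10 genes together took 4.18%, 4.42%, 3.77% and 3.62% in control libraries 1 to 4 and 2.16%, 2.21% and 2.18% in LPS libraries 1 to 3. The LPS libraries were nearly alike and all lay below the controls. The means were 3.99 ± 0.369% (SD, n = 4) and 2.18 ± 0.0215% (SD, n = 3), so the LPS mean was 0.546 of the control mean. The 4 genes called lower, Apoa1, Apoa2, Apoc1 and Apoe, took 3.40 ± 0.470% of control counts and 1.58 ± 0.0372% of counts after LPS. They were picked by their fall in these same libraries, so the fall of their sum was fixed by that choice. No test was made of these sums.

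By role, the HDL genes took 1.59 ± 0.265% of all counts in controls (SD, n = 4) and 0.753 ± 0.0422% after LPS (SD, n = 3). The exchangeable group took 2.02 ± 0.230% and 1.05 ± 0.0453%. Most of that was Apoe, with 1.55 ± 0.128% and 0.766 ± 0.00856%. In the same group Apoa4 went from 0.0109 ± 0.00460% to 0.0549 ± 0.0274%, and Apoa5 took 0.0716 ± 0.0109% and 0.0669 ± 0.00261%. Apob took 0.385 ± 0.133% and 0.383 ± 0.0210%, so the means differed by less than the spread. The ratio of the means depends on the total. The LPS mean for Apob was 0.996 of the control mean over all counts and 0.917 without mitochondrial genes. It was 1.31 without 26 acute phase genes and 1.22 without both. For the HDL genes that ratio was 0.474 over all counts and 0.624 without the acute phase genes. For the exchangeable group it was 0.517 and 0.679. Without Apoe and Apoa1, the members with the most counts, the 8 remaining genes took 1.42 ± 0.189% and 0.837 ± 0.0326%. They did not all go the same way. Apoa2 went from 0.547 ± 0.196% to 0.156 ± 0.0116% and Apoc1 from 0.275 ± 0.102% to 0.0821 ± 0.00534%. The mean shares of Apoa4, Apoc2 and Apom were higher after LPS.

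Shares depend on what else fills the library. A list of 26 acute phase genes, of which 25 rose, took 4.67 ± 0.947% of all counts in controls and 27.3 ± 2.67% after LPS. With these genes left out of the total, the 10 apolipoprotein genes took 4.19 ± 0.361% and 3.01 ± 0.132%, 0.718 of the control mean. With the mitochondrial genes also left out, the shares were 4.94 ± 0.776% and 3.21 ± 0.0814%. For the sum of the 10 genes the direction was the same under each denominator, while the distance between the groups was smaller without the acute phase genes.

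**Figure D3:**
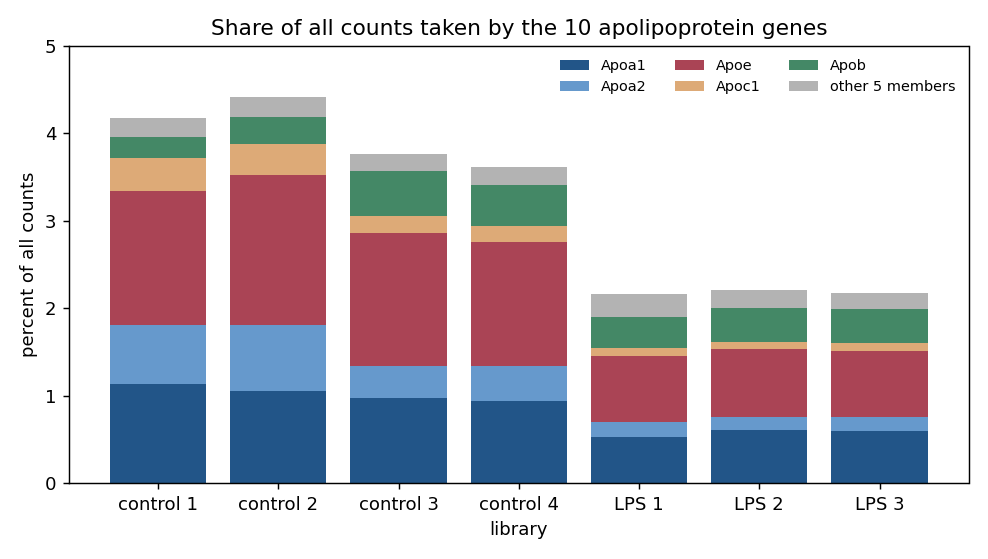
Percent of all counts in each library taken by Apoa1, Apoa2, Apoe, Apoc1, Apob and the other 5 apolipoprotein genes, stacked from 0. The 4 control libraries reach between 3.62% and 4.42% and the 3 LPS libraries between 2.16% and 2.21%, and the green Apob part does not shrink in the way of the other named parts.

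Each gene's share of the family's own counts was not tested. Apoe made up 38.9 ± 1.52% of the counts of the 10 genes in controls (SD, n = 4) and 35.1 ± 0.194% after LPS (SD, n = 3), and Apoa1 made up 25.8 ± 1.34% and 26.6 ± 1.93%. The share of Apoa2 was 13.4 ± 3.70% in controls, with 16.2%, 17%, 9.54% and 11.1% in libraries 1 to 4, and 7.17 ± 0.599% after LPS. That of Apoc1 was 6.77 ± 2.0% in controls, with 8.97%, 7.94%, 5.08% and 5.07%, and 3.76 ± 0.277% after LPS. For both genes control libraries 3 and 4 lay much nearer to the LPS libraries than control libraries 1 and 2 did. Apob went from 9.88 ± 4.13% to 17.5 ± 0.822%, with 5.75%, 6.92%, 13.7% and 13.1% in control libraries 1 to 4. Apoa4, at 0.282 ± 0.138% in controls, reached 2.52 ± 1.28%.

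Ratios within a library do not depend on the scaling between libraries. Of 9 ratios between members tested by a two-sided exact permutation test over the 35 relabellings of the libraries, 2 reached 0.0286, the smallest p possible: Apoa4 to Apoa1 and Apoa5 to Apoa1. The log2 ratio of Apoa4 to Apoa1 was -6.66 ± 0.74 in controls and -3.51 ± 0.78 after LPS, a difference of 3.15. That of Apoa5 to Apoa1 was -3.85 ± 0.34 and -3.11 ± 0.07, a difference of 0.74. The groups did not overlap in these 2 ratios, nor in Apoa2 to Apoa1 (a difference of -0.91), Apob to Apoa1 (0.89) and Apoc1 to Apoe (-0.66). Without control libraries 1 and 2 the differences were 2.52 for Apoa4 to Apoa1, 0.52 for Apoa5 to Apoa1, -0.55 for Apoa2 to Apoa1, 0.36 for Apob to Apoa1 and -0.25 for Apoc1 to Apoe, all of them smaller. None of the 9 ratios passed after Benjamini-Hochberg adjustment (exact permutation test, lowest adjusted p = 0.129). With 2 of the 9 at the smallest p possible, that adjusted value followed whatever the size of their differences.

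Albumin (Alb), the most abundant plasma protein of the hepatocyte, served as a reference outside the family. It fell too, at -0.93 on the log2 scale (SE 0.24, adjusted p = 0.0137 by edgeR's quasi-likelihood test with Benjamini-Hochberg adjustment). That call was lost without LPS library 2 (adjusted p = 0.0618), without LPS library 3 (0.0642) and with the pair summed (0.0653), by edgeR's quasi-likelihood test with Benjamini-Hochberg adjustment. The log2 fold change of Alb in these fits was -0.93, -0.93 and -0.92. The log2 ratio of Apoe to Alb was -1.22, -1.20, -2.07 and -1.99 in control libraries 1 to 4 and -1.78, -1.53 and -1.55 in LPS libraries 1 to 3. The mean was -1.62 in both groups, but the LPS libraries lay between the 2 pairs of controls, and without control libraries 1 and 2 the ratio was 0.41 higher after LPS. The ratio of Apoa1 to Alb, -2.21 ± 0.51 in controls and -2.02 ± 0.25 after LPS, differed by 0.19 (exact permutation p = 0.543), and by 0.62 without control libraries 1 and 2. Leaving out those libraries also turned the difference from -0.72 to 0.07 for Apoa2 to Alb and from -0.65 to 0.16 for Apoc1 to Alb.

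The ratios of Apoa4, Apob and Apoa5 to Alb were higher in every LPS library than in any control, but none passed after adjustment. The log2 ratio of Apob to Alb was -3.90, -3.70, -3.63 and -3.56 in control libraries 1 to 4 and -2.86, -2.50 and -2.50 in LPS libraries 1 to 3. Its control values were close together, unlike the CPM of Apob. The differences between groups were 1.08 for Apob, 0.93 for Apoa5 and 3.34 for Apoa4, each with an exact permutation p of 0.0286, and 0.0953 after Benjamini-Hochberg adjustment over the 10 ratios to Alb. This exact p is the smallest possible with these libraries. With so few of the 10 ratios at it, that adjusted value followed whatever the size of their differences. With LPS libraries 2 and 3 summed, the smallest exact p possible is 0.0667.

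**Figure D4:**
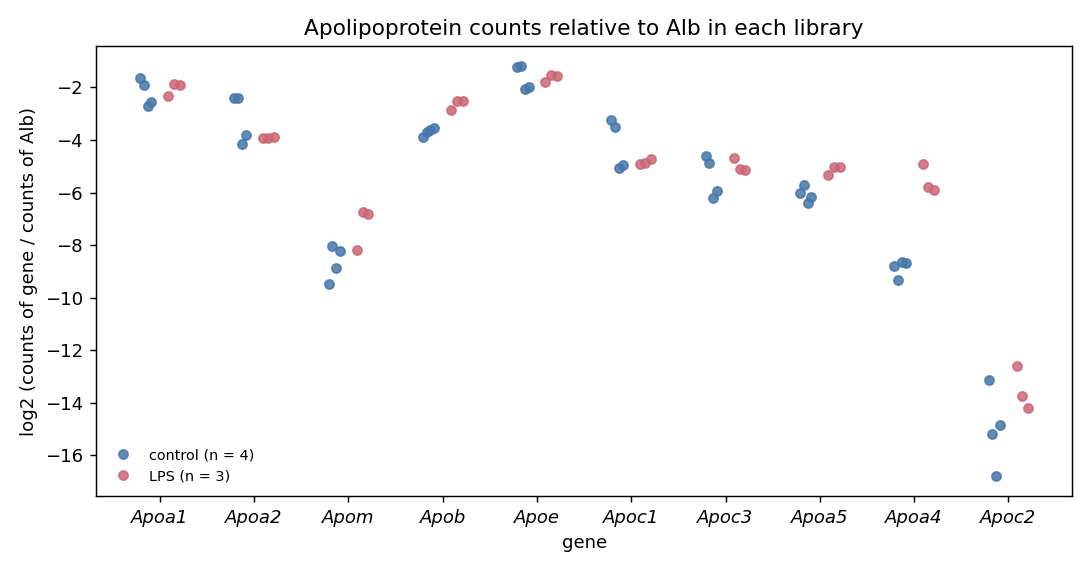
Log2 ratio of the counts of each apolipoprotein gene to those of Alb in each library, control libraries (n = 4) in blue and LPS libraries (n = 3) in red. For Apob, Apoa5 and Apoa4 every LPS library is above every control library, while the groups overlap for the other 7 genes.

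Members that lie side by side in the genome were also compared. In RefSeq, Apoa1, Apoc3, Apoa4 and Apoa5 follow each other on chromosome 9, and their log2 fold changes in that order were -0.70, -0.51, 2.42 and 0.03, of which those of Apoa1 and Apoa4 passed the test. Apoc2, Apoc4, Apoc1 and Apoe lie together on chromosome 7. There Apoc1 (-1.65) and Apoe (-0.90) fell, and Apoc4, a further apolipoprotein gene of this cluster, had a log2 fold change of -0.86 (adjusted p = 0.0104 by edgeR's quasi-likelihood test with Benjamini-Hochberg adjustment). Apoc2l, the unit that shares exons with Apoc2, had a log2 fold change of -1.43 (adjusted p = 0.00787 by edgeR's quasi-likelihood test with Benjamini-Hochberg adjustment). How reads on the shared exons were assigned is not given in the sources used here, so the values of Apoc2 and Apoc2l are uncertain.

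RefSeq's promoter table held 8 of the 10 members, and Apoc1 and Apoc3 were not matched. The 250 bases upstream of each start were searched on both strands for AGGTCA (in 14.0% of the 32851 promoters of the table), CAAAGTCCA (in 0.384%) and GTTAAT (in 6.43%), letters bound by nuclear receptors and hepatocyte factors. They were also searched for TTCNNNGAA (in 7.02%), GGGACTTTC (in 0.289%) and TATAAA (in 12.4%), letters bound by STAT proteins, NF-kappa B and the TATA-binding protein, and for TTGCNNAA (in 9.56%) and TGTTTAC (in 3.17%), letters bound by C/EBP and forkhead proteins. Of the 8 members, Apoa2, Apoa5 and Apob had TATAAA, Apoa2 had TGTTTAC, Apob had TTGCNNAA, and Apoc2 had AGGTCA and GTTAAT. No match overlapped another, and these matches are letters only, with no measure of binding. Shown are stretches ahead of genes that fell (Apoa1, Apoa2 and Apoe), the gene that rose (Apoa4) and genes that did not pass (Apob and Apoa5), so that they can be read side by side. They are written 5′ to 3′ along the gene, with matches in capitals, and each ends before the first start that RefSeq or GENCODE gives within the window. In build GRCm38.p6 they lie at chr9:46228460-46228579 (plus strand) for Apoa1, chr1:171224934-171225053 (plus) for Apoa2, chr7:19699189-19699308 (minus) for Apoe, chr9:46240594-46240695 (plus) for Apoa4, chr12:7977509-7977628 (plus) for Apob and chr9:46268488-46268607 (plus) for Apoa5.
Apoa1: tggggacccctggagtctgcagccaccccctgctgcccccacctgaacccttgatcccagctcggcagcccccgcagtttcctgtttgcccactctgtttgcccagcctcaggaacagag
Apoa2: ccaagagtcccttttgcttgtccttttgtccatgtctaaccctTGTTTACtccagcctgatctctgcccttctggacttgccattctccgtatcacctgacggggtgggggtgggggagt
Apoe: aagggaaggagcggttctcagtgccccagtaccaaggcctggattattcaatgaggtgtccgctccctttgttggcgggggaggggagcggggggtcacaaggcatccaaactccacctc
Apoa4: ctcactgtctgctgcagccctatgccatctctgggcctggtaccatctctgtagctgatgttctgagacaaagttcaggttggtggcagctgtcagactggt
Apob: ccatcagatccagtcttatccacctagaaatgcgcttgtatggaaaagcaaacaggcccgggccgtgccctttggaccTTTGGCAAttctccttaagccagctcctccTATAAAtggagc
Apoa5: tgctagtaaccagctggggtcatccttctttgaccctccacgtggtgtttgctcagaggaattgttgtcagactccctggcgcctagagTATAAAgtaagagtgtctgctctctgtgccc

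The remaining genes of the pathway came from written lists, whose counts stand beside 13.3% higher, 13.0% lower and a median log2 fold change of -0.01 over all genes tested. Among 17 other apolipoproteins and HDL-borne proteins tested, 3 rose and 5 fell, with a median log2 fold change of -0.13. Those that rose were Saa4 (3.11), Apon (1.34), which encodes a further apolipoprotein, and Clu (1.03), which encodes the HDL-borne chaperone clusterin. The falls with the smallest p were in Pon1 (-1.66), which encodes the antioxidant esterase of HDL, Apol7a (-1.27) and Apool (-0.64). Apol7a and Apool were listed by their names, and whether their proteins travel on lipoproteins was not tested. All 4 serum amyloid A genes rose, with log2 fold changes of 7.99 for Saa1, 9.15 for Saa2, 9.64 for Saa3 and 3.11 for Saa4, beside 2.42 for Apoa4; these differences between genes were not tested. These 4 genes took 0.0362 ± 0.00928% of all counts in controls and 5.43 ± 0.677% after LPS, while the HDL genes took 1.59% and 0.753%.

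The 12 negative acute phase plasma protein genes, which are known to be made less in inflammation, were a list outside the family to set beside it. Of these, 5 fell, 1 rose and 6 did not pass, with a median log2 fold change of 0.01. Serpina6 (-5.09), Ttr (-1.23) and Rbp4 (-0.71) fell with the smallest p, and Trf (1.03) rose. The call on Rbp4 was lost without LPS library 2, at a log2 fold change of -0.66 and an adjusted p of 0.0509 by edgeR's quasi-likelihood test with Benjamini-Hochberg adjustment. The falls of Apoa2 (-1.71) and Apoc1 (-1.65) stood beside -1.23 for Ttr and -0.93 for Alb with all libraries. Without control libraries 1 and 2 the log2 fold changes were -1.12 for Apoa2, -1.03 for Apoc1, -1.09 for Ttr and -1.20 for Alb, so the order of these genes depends on those libraries, and the differences between genes were not tested.

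Of 24 genes for the assembly and secretion of Apob particles, 15 did not pass, 5 rose and 4 fell, with a median log2 fold change of -0.05. Mttp, which loads lipid onto Apob, had a log2 fold change of 0.07 and did not pass, as Apob did not. Tm6sf2 (1.55), an endoplasmic reticulum protein of VLDL lipidation, and the cargo transport genes Surf4 (0.97) and Sec24d (0.74) rose. The hydrolases Ces1d (-6.31) and Ces3a (-1.70), which mobilise stored triglyceride for VLDL, and the sorting receptor Sort1 (-1.14) fell. Of the 4 tested genes for the editing of Apob mRNA, 0 passed by edgeR's quasi-likelihood test, 0 had an unadjusted p below 0.05 and 0 passed by DESeq2. Their median log2 fold change was -0.30, and Apobec1, the editing enzyme, had -0.29.

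Of 13 genes for the maturation and remodelling of HDL, 3 rose and 2 fell, beside 13.3% and 13.0% of all genes, and the median log2 fold change was -0.19. Lcat (1.36), whose enzyme is activated by Apoa1, and Abca1 (0.69), which loads Apoa1 with cholesterol, rose while Apoa1 fell. Bmp1 (0.39), a protease that processes the Apoa1 precursor, passed narrowly and lost its call in 11 of 17 alternative fits. Among them were the fit with LPS libraries 2 and 3 summed and each fit that left out 1 control library. Lipc (-3.27), which encodes hepatic lipase, and Cyp27a1 (-1.32), an oxysterol-forming enzyme, fell. Pltp (-0.57), which transfers phospholipid between particles, did not pass and had 0.16 without control libraries 1 and 2 but -1.18 without LPS library 1 (adjusted p = 0.0532 by edgeR's quasi-likelihood test with Benjamini-Hochberg adjustment), and it passed without the filter on low counts. Scarb1 (-0.32), the HDL receptor, did not pass either, but without those libraries it had -0.67 (adjusted p = 0.0153 by edgeR's quasi-likelihood test with Benjamini-Hochberg adjustment).

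Of 18 receptor and uptake genes, 5 rose and 0 fell by edgeR's quasi-likelihood test, and the median log2 fold change was 0.32. DESeq2 also gave 0 lower, and 1 gene was lower at an unadjusted p below 0.05. The scavenger receptor genes Msr1 (2.75) and Cd36 (2.59) and the heparan sulfate proteoglycan Sdc1 (1.70), which binds Apoe-bearing remnants, rose. Msr1 had 72.9, 43.8 and 37.7 CPM in LPS libraries 1 to 3, where the macrophage markers summed to 881, 275 and 283 CPM. The part of macrophages in these receptor values was not tested. Of 14 genes of lipase regulation, 5 rose, 4 fell and the median was -0.27. Lpl (-1.70), the lipase that Apoc2 activates and Apoc3 inhibits, Angptl6 (-2.24) and the convertase Pcsk6 (-0.91) fell. Angptl4 (1.08), an inhibitor of that lipase, Pcsk5 (1.55) and Sel1l (0.62) rose.

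Among 35 transcription factor and coregulator genes known to act on apolipoprotein genes, 9 rose and 6 fell, beside 13.3% and 13.0% of all genes, with a median log2 fold change of 0.12. Hnf4a, a nuclear receptor that drives many apolipoprotein genes, had 0.74 (adjusted p = 0.00961 by edgeR's quasi-likelihood test with Benjamini-Hochberg adjustment), whereas 4 members fell. That call was lost without LPS library 2 (adjusted p = 0.0581), without LPS library 3 (0.0506) and with both summed (0.0533), by edgeR's quasi-likelihood test with Benjamini-Hochberg adjustment. The log2 fold change of Hnf4a in these fits was 0.66, 0.69 and 0.68. The inflammatory factors Cebpd (2.34) and Stat3 (1.66) and the coactivator Ppargc1a (2.08) rose, while the lipogenic factors Mlxipl (-2.72) and Srebf1 (-2.44) and the clock repressor Nr1d1 (-1.71) fell.

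Other cell types also differed between the groups. The 13 neutrophil markers summed to 5.37, 4.35, 1.95 and 3.72 CPM in controls and 233, 179 and 171 CPM after LPS, with the highest CPM in Csf3r in each control and in S100a9 in each LPS library. Of these, 11 were tested and all rose. Some of them, such as Ngp, Retnlg, Mmp8 and Ltf, had 0 to 2 counts in each control library. They passed the filter on low counts only through the LPS libraries, so nothing is read from the count of 11. Of 9 sinusoidal endothelial markers 2 rose and 2 fell, of 9 stellate cell markers 1 rose and 2 fell, and of 7 cholangiocyte markers 1 rose. Of 6 lymphocyte markers tested 2 fell, and of 5 erythrocyte markers tested 4 fell. The part of these cell types in the apolipoprotein values was not tested.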

How the data were processed

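The authors deposited raw counts of reads per gene for 56691 genes in 7 liver libraries, which were used as deposited. The submitters' processing notes name cutadapt 1.9.1, HISAT2 2.2.1, HTSeq 0.6.1, DESeq2 1.34.0 and the build GRCm39. The annotation, the counting mode and the use of strand are not given in the sources used here, and they bear on Apoc2, Apoa4 and Apoa5. GENCODE M21 and RefSeq of GRCm38 gave exon lengths, overlaps and gene order only, apart from the promoter sequences.

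Low genes were removed with filterByExpr of edgeR 4.0.16 (R 4.3.3), and 13683 were kept. After TMM scaling, edgeR's quasi-likelihood test compared the groups over all 7 libraries with no covariate, p was adjusted by Benjamini-Hochberg, and the threshold was 0.05. Ratios were tested in Python 3.11.15 by exact permutation. The method was also run on simulated data, but the outcome is not given here and no result rests on it. The alternatives comprised another tool (DESeq2 1.42.0), scaling by RLE or by total counts, mitochondrial genes removed, library sizes without genes above 1%, other filters (none, or 10 counts or more in each library), a threshold of 0.01, an added log2 fold change above 1, the replicate number as a block, LPS libraries 2 and 3 summed and each library left out. Leaving out control libraries 1 and 2 was added after the data were seen. Abundant genes in the comparison of replicates had over 2000 counts in both libraries together.

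The members and lists were chosen with earlier results of these data known. Named genes were the 10 members, the 3 genes with the smallest p that passed in each direction in every list, a fixed set (of which Alb, Mttp, Abca1, Lcat, Pltp, Lipc, Scarb1, Lpl, Angptl4, Apobec1, Hnf4a, Saa1, Saa2 and Clu are given and the rest is not reported here), and the most abundant and absent markers. Apoc4, Apoc2l, Clec4f, Lyz2, Csf3r, Fabp2 and Anpep were named after their values were seen.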

Additional observations from a re-analysis of the deposited data

How the results depend on the processing

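The falls of Apoa2, Apoc1 and Apoe and the rise of Apoa4 kept their direction and their call in all 17 alternative fits. There were 3 members lower with LPS libraries 2 and 3 summed or without any single LPS library, and 3 at an adjusted p below 0.01, each of which ended the call on Apoa1, and 2 past an absolute log2 fold change of 1. Among all genes, 1195 of 14228 were lower with the pair summed, in place of 1773 of 13683. Without LPS library 1, 2 or 3, 1550 of 13975, 1146 of 14130 and 1159 of 14089 were lower. The share of all genes past the stricter rules is not given here. Members higher numbered 2 without the filter on low counts and 2 with the replicate block, where Apom joined, and Apoc3 then joined the members lower. Without that filter 2065 of all 23651 genes were higher and 1967 lower. Under the replicate block Apom had a log2 fold change of 0.69 and Apoc3 of -0.60. The deviations of same-numbered libraries from their group means had correlations of 0.22, -0.06 and 0.09, beside -0.16 to 0.11 for libraries of unlike number. The labels do not say whether the numbers pair the mice, and so few pairs cannot decide it. The block gave 1647 genes higher and 1587 lower among all genes. Total counts moved the median of all genes by -0.116 on the log2 scale. Under total counts the log2 fold change was -0.10 for Apoa5, -0.01 for Apob and -0.06 for Mttp. Without control libraries 1 and 2 it was -0.04 for Apoa5, -0.21 for Apob, -0.04 for Mttp and 0.16 for Pltp, and with LPS libraries 2 and 3 summed it was -0.01 for Apoa5. With 1 library left out at a time it ranged from -0.04 to 0.14 for Apoa5, -0.01 to 0.31 for Apob, -0.24 to 1.11 for Apoc2 and -0.45 to 0.14 for Apobec1; the cause was not tested. The summed share of the 10 members without mitochondrial genes in the total was 4.67% in controls and 2.29% after LPS, without the acute phase list 3.01% after LPS, without both 4.94% and 3.21%, and with TMM-scaled totals 2.29% after LPS. Without control libraries 1 and 2 the difference in log2 ratio to Alb was 0.07 for Apoa2 and 0.16 for Apoc1, a change of sign. That of Apoe to Alb, 0.00 with all libraries, was -0.12 over same-numbered libraries, -0.04 with LPS libraries 2 and 3 summed and -0.15 to 0.14 with 1 library left out, where that of Apoc3 to Apoa1 was -0.05 to 0.38. Low counts limit Apoc2.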
